A study of Mus musculus with 8 samples.

Results

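Histone lysine methylation was examined here through the accessibility of the genes that encode its enzymes. The 34 genes are the autosomal protein-coding genes of the mm10 annotation whose symbols begin with Kmt or Kdm and a digit, together with Ezh1, Ezh2, Eed, Suz12, Setd1a, Setd1b, Setd2, Ehmt1, Ehmt2, Nsd1 and Dot1l, out of 20807 autosomal protein-coding genes. ATAC-seq, in which the Tn5 transposase cuts and tags open DNA, had been carried out on granule neuron progenitors (GNPs), the dividing precursors of cerebellar granule neurons, purified from mouse pups at postnatal day 7. The WT group carried floxed Chd7 alleles without Cre (Chd7 f/f, 3 libraries), the het group Atoh1-Cre with 1 floxed allele (Atoh1-Cre::Chd7 f/+, 2 libraries) and the mutant group Atoh1-Cre with both alleles floxed (Atoh1-Cre::Chd7 f/f, 3 libraries). Chd7 encodes an ATP-dependent chromatin remodeller, and the comparison asks whether accessibility at these genes differs when it is deleted. Atoh1-Cre acts in the Atoh1+ granule lineage, so other cell types of the preparation keep the floxed alleles, and the study describes residual Chd7 protein in the posterior cerebellum of mutants. Animals were not selected by sex, and the study describes the WT and mutant replicates as technical. The labels give the strain of all groups as C56Bl6/J, and the study's methods name C57BL/6N.

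The data are 3 lists of peaks, each called on the pooled libraries of a genotype. No value of a single library was used, so no replicate error could be given and no difference between genotypes was tested. The lists held 152984 peaks for WT, 106974 for het and 174407 for mutant, from 50394313, 30923002 and 51030229 tags. Per the labels and file headers, WT and mutant were called from another aligner and with other fragment settings than het, whereas the study's methods describe the het settings without naming a group, and this conflict could not be settled here. Tag size was 107 bp in WT and het and 76 bp in mutant. With the settings of the headers, genotype and processing cannot be told apart in a comparison with het, nor can genotype and tag size between WT and mutant. The peak lists hold no coverage over the floxed exon, and the deletion was therefore not checked. Of 8 GNP markers, 8 had a promoter peak in each list. The Purkinje cell marker Pcp2, Gfap of astrocytes, Sox10 of the oligodendrocyte lineage, Cx3cr1 and Aif1 of microglia and Pecam1 of endothelium had none in any list, whereas 3 of 4 Purkinje cell, 3 of 4 astrocyte and Bergmann glia, 2 of 3 oligodendrocyte and 2 of 3 endothelial markers had one in each list, and of 4 microglial markers 2 had one in each of the WT and mutant lists and 1 in the het list.

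The methylation state of lysines on the histone tails is set by methyltransferases, which add methyl groups, and by demethylases, which remove them. Methylation of H3K4 is known as a mark of promoters and enhancers, H3K36 and H3K79 methylation of transcribed gene bodies, and H3K9, H3K27 and H4K20 methylation of silenced or compacted chromatin. H3K27 methylation is deposited by Polycomb repressive complex 2 (PRC2), whose catalytic subunit is Ezh1 or Ezh2 and whose core also needs Eed and Suz12. In GNPs these systems are known to act on the switch from proliferation to neuronal differentiation.

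A few regions carry most of what follows, and their sequences are shown, read 5′ to 3′ from the mm10 (GRCm38) reference. Capitals mark matches on either strand to 6 short motifs. These are CCGGAAG (ETS factors), CCAAT (the CCAAT box), GGGCGG (the GC box), TTGGCA (part of the NFI site) and the E-boxes CAGCTG and CAGATG, which are bound by bHLH factors of the class of Atoh1. The first 2 sequences lie upstream of the RefSeq starts of PRC2 genes, the next 3 lie in the first, the second and the fourth of the tallest WT peaks over 1 kb from any GENCODE start (the first and the second lie within 1 kb of a RefSeq start), and the last 3 lie in peaks that were found in 1 of the WT and mutant lists or were lower in the mutant list.
Suz12, chr11:79992946-79993105, plus strand: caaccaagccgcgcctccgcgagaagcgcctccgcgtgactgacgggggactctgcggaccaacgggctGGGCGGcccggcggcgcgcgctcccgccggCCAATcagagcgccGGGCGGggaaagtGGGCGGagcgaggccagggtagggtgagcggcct
Eed, chr7:89980977-89981136, minus strand: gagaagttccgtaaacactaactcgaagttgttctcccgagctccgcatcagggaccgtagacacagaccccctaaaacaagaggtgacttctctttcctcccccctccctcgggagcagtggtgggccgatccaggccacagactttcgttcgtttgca
Kdm6b, chr11:69418897-69419047, minus strand: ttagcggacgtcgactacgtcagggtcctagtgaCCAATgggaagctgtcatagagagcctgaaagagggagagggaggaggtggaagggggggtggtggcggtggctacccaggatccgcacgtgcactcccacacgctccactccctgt
Kdm2a, chr19:4334140-4334340, minus strand: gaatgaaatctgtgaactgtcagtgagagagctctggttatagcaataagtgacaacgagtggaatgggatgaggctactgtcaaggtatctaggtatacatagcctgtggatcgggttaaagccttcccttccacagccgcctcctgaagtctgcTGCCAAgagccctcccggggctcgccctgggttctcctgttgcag
Kdm4b, chr17:56360498-56360648, plus strand: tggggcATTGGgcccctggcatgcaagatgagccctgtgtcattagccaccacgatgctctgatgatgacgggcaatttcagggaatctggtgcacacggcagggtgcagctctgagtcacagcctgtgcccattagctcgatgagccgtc
Eed, WT list alone, chr7:89983562-89983703, minus strand: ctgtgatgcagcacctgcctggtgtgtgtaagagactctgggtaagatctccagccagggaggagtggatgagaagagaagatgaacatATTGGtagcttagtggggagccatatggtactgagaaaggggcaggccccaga
Kdm2b, mutant and het lists, chr5:122972218-122972377, minus strand: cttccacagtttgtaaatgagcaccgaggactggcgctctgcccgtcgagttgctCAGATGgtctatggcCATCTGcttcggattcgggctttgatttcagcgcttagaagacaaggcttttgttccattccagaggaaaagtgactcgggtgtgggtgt
Kdm4a, lower in mutant, chr4:118147966-118148116, minus strand: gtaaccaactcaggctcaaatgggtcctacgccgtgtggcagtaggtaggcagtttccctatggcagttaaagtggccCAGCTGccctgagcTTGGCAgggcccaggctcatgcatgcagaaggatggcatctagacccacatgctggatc
The Suz12 sequence had 76.3% G and C with 24 CpG dinucleotides and held 3 GC boxes and a CCAAT box. The 160 bp shown for the Eed promoter had 55.6% G and C and held none of the 6 motifs. Within 250 bp of the WT promoter summits, Eed had 70.9% G and C with 63 CpG dinucleotides, and Suz12 68.9% with 55. The Kdm2b sequence held 2 E-boxes of the CAGATG type in opposite orientation, and the Kdm4a sequence an E-box of the CAGCTG type followed by an NFI motif.

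Every histone methylation enzyme gene had at least 1 peak in each list within its window, which is the gene body with 5 kb upstream and 1 kb downstream. Of all 20807 autosomal protein-coding genes, which were shorter at the median, 3792 had no WT peak, 4390 no het peak and 3666 no mutant peak. The windows of the enzyme genes held 134 WT peaks, 97 het peaks and 140 mutant peaks, and the median enzyme gene had 3, 2 and 3.5. The peaks were unevenly divided. Kdm4b, a demethylase of H3K9 and H3K36, had 15 WT, 10 het and 14 mutant peaks. Kdm2b, which demethylates H3K36 and recruits Polycomb complexes to CpG islands, had 13, 7 and 14. Kdm6b, a demethylase of H3K27, had 9, 5 and 9 although the gene is 15.2 kb long. These 3 genes together had the most WT peaks. At the other end, the PRC2 subunit Suz12, the H3K36 methyltransferase Setd2, the H4K20 methyltransferase Kmt5c, the H3K9 demethylase Kdm4d and the H3K4 demethylase Kdm5a had a single peak in every list.

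**Figure D1:**
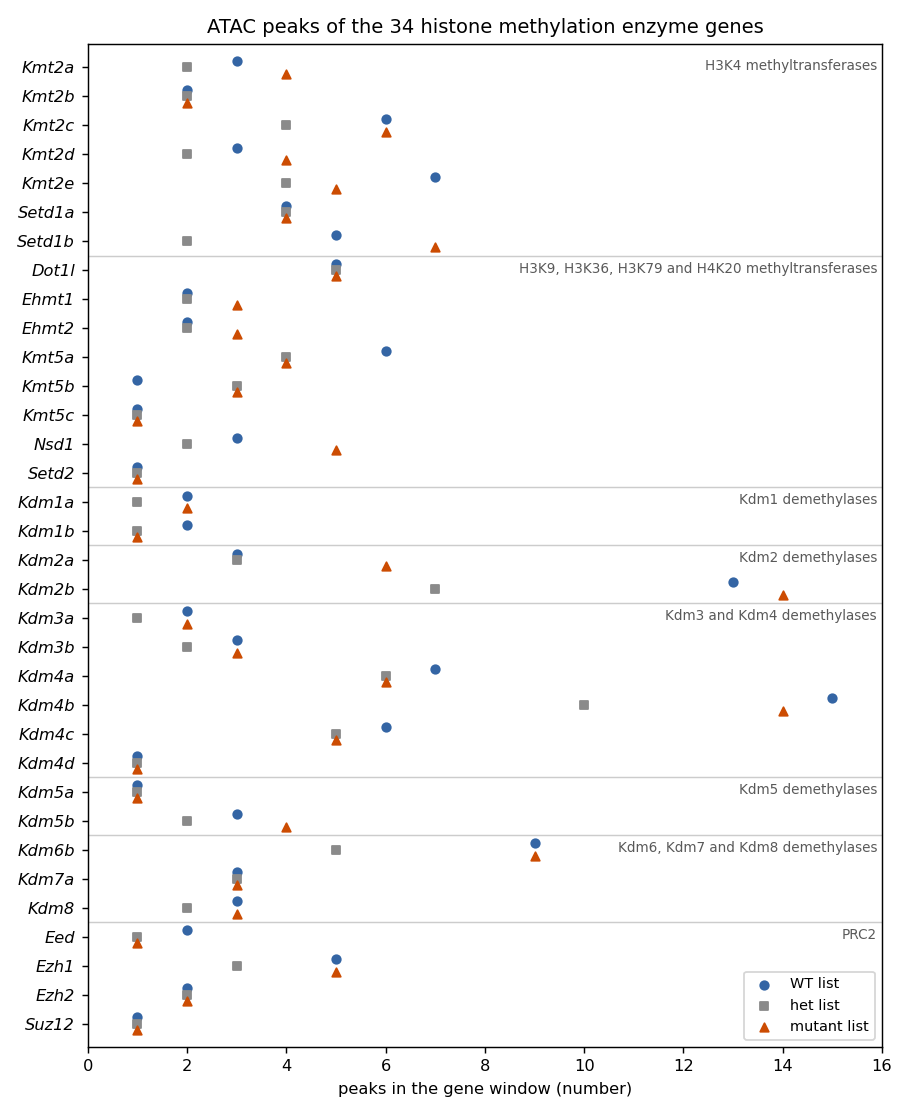
Number of peaks in the window of each of the 34 genes (x axis), with genes grouped by enzyme class (y axis) and a symbol for each of the WT, het and mutant lists. Kdm4b, Kdm2b and Kdm6b stand apart with 9 or more WT peaks, and 5 genes have 1 peak in every list.

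The genes were long and carried few peaks for their length. Their median length was 47.5 kb, against 17.6 kb for all autosomal protein-coding genes and 23.1 kb for those with a WT peak, and they had a median of 0.43 WT peaks per 10 kb of window against 0.90 for genes with a WT peak. Among genes of 60 to 100 kb with a WT promoter peak, the 10 histone methylation enzyme genes had a median of 3 WT peaks and all 1479 genes a median of 6. From 100 to 1000 kb the medians were 6 for 5 genes (Ehmt1, Kdm2b, Kdm4c, Kmt2c and Nsd1) and 15 for 2114 genes. Those 5 genes spanned 108.5 to 227.0 kb, so the comparison in this bin was not matched for length. Below 30 kb, 8 genes had a median of 2.5 and all 8079 genes a median of 2. From 30 to 60 kb the medians were 2 for 10 genes and 3 for 2675 genes, so the lower number was seen in the longer genes. Setd2, which spans 86.0 kb, and Kdm5a, which spans 80.5 kb, had no peak in their bodies beyond the promoter.

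Promoters made up a large part of the accessible regions. Of the 134 WT peaks, 54 had their summit within 1 kb of an annotated start (40.3%, Wilson 95% interval 32.4 to 48.8%), against 22.3% of the 82280 WT peaks of all autosomal protein-coding genes. Intronic summits numbered 67 (50%, 41.7 to 58.3%) against 67.5% of all. In the mutant list 57 of 140 summits (40.7%) were near a start against 21.3%, and in het 45 of 97 (46.4%) against 26.03%. The intervals cover counting error over peaks only.

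A promoter peak, defined as a peak within 1 kb of a start of a coding transcript of the gene, was found in all 3 lists for 33 of 34 genes (66.4% of all autosomal protein-coding genes had one in all 3 lists). The exception in each list was Kdm6b, described further down. WT promoter peaks had a median height of 1.09, where height is the pileup at the summit per 1000000 tags of the list, and the median over all genes was 1.03. They were wide rather than tall, with a median width of 1112 bp against 803 bp. A WT promoter peak of at least 1000 bp was found for 20 of 33 genes (60.6%), against a background of 29.8%. The sequence within 250 bp of the WT promoter summits had a median of 65.5% G and C against 62.5% for all genes, and a median of 48 CpG dinucleotides against 37. A start on the opposite strand lay within 1 kb of the gene start for 9 of the 34 genes (26.5%) and for 17.7% of all genes, for example Cwc15 beside Kdm4d and Tpmt beside Kdm1b.

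In the RefSeq promoter table (250 bases before to 50 after a start), 25 of the 34 genes were matched. The GC box was present in 18 of 25 (72%), against 51.7% of the 15687 autosomal protein-coding genes in the table. The CCAAT box was present in 11 (44%) against 41.7%, the ETS motif in 4 (16%) against 13.6%, the NFI motif in 5 (20%) against 15.2%, CAGCTG in 6 (24%) against 17.8% and CAGATG in 2 (8%) against 16.6%. In the 201 bp centred on the summits of the 80 WT peaks away from starts, CAGATG was found in 27.5% against 31.4% for all 63942 such peaks, CAGCTG in 26.3% against 25.7%, the NFI motif in 22.5% against 23.2%, CCAAT in 21.3% against 24.9% and the GC box in 13.8% against 6.59%. The ETS motif was found in 0 of these 80 windows and in 1.29% of all. Apart from the GC box, the shares in peaks away from starts were close to those of all such peaks.

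Promoter heights ran from 0.456 to 1.85 in WT. Kdm4b was the tallest at a height of 1.85 in WT and 1.76 in mutant, followed by Kdm4c at 1.81 and 1.70, both demethylases of H3K9 and H3K36. Kdm3a, a demethylase of H3K9, followed at 1.75 and 1.69, Ezh2 at 1.73 and 1.72, and Kmt2e, a relative of the H3K4 methyltransferases, at 1.71 and 1.78. The WT summit for Kmt2e lay 1041 bp from its nearest coding start and 64 bp from the nearest annotated start of any gene. The gene to which that peak belongs cannot be told from its position. A WT peak nearer the Kmt2e start (chr5:23433781-23434629) had a height of 1.43. The lowest was Kdm5b, an H3K4 demethylase, at 0.456 in WT and 0.529 in mutant, which put it at the 14.9th percentile of WT promoters. The H3K9 methyltransferase Ehmt2 stood at 0.635 and 0.686. Its het promoter peak was a 200 bp peak at rank 5.74, where rank is the percentage of peaks of the same list at or below the -log10 q value, whereas its ranks in WT and mutant were 67.1 and 73.1.

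**Figure D2:**
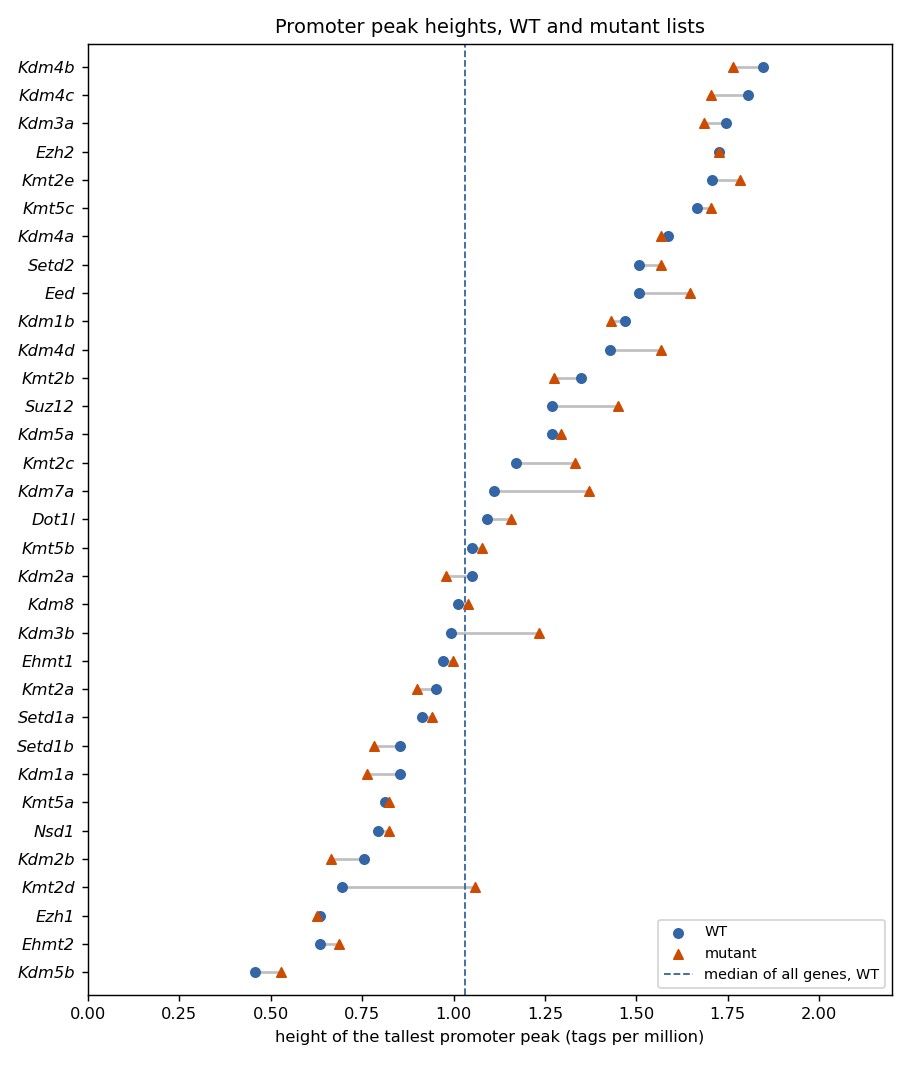
Height of the tallest promoter peak (x axis, pileup scaled to the tags of the list) for 33 genes (y axis) in the WT (circles) and mutant (triangles) lists, with a dashed line at the WT median of all genes. Most pairs of symbols lie close together, and Kmt2d has the widest gap, from 0.695 to 1.06.

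The WT and mutant heights at promoters were close. The median log2 ratio of mutant to WT was 0.04 over 33 promoters and 0.05 over the 14142 promoters of all genes, and 20 of 33 were higher in mutant (60.6%, against 63.1%). At the PRC2 core genes the ratios were 0.00 for Ezh2, 0.13 for Eed, 0.19 for Suz12 and -0.02 for Ezh1. Among the H3K4 methyltransferases they were -0.08 for Kmt2a, -0.08 for Kmt2b, 0.19 for Kmt2c, 0.61 for Kmt2d, 0.06 for Kmt2e, 0.04 for Setd1a and -0.12 for Setd1b. The demethylases Kdm3b and Kdm7a had 0.32 and 0.30, and Kdm2b and Kdm1a had -0.18 and -0.16. The Kdm2b value came from a peak at a start inside the gene (chr5:122899691-122900822). The shared peak nearest the Kdm2b gene start (chr5:122989094-122989535) held 24 tags in WT and 27 in mutant, a log2 ratio of 0.15. Of the 33 promoters 1, that of Kmt2d, differed by at least 1.5-fold in its tallest peak, and 1.86% of the promoters of all genes did so in either direction. The WT promoter summits of Kmt2a, Kmt2c and Setd1b lay 923, 963 and 960 bp from their own coding starts. The nearest annotated start of any gene was 469, 641 and 144 bp away, so their assignment is uncertain too, as for Kmt2e.

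The Kmt2d peak (chr15:98871326-98872547) held 35 tags at its summit in WT and 54 in mutant, which are heights of 0.695 and 1.06, a 1.52-fold difference. The WT, het and mutant ranks were 76.1, 71.4 and 91.7. The exact Poisson 95% intervals of the pileups, 24.4 to 48.7 and 40.6 to 70.5 tags, overlapped, and they cover counting error of tags only. Kmt2d encodes an H3K4 methyltransferase that acts at enhancers. The summit lay 1101 bp upstream of the GENCODE start of Kmt2d and 697 bp from the nearest RefSeq start of Kmt2d (98871608). It lay 339 bp from the start of the long non-coding gene 5730414N17Rik. The peak also overlapped an exon of a RefSeq Kmt2d transcript. The gene to which it belongs can therefore not be told from its position. A smaller shared peak nearer the GENCODE start of Kmt2d (chr15:98870905-98871030) held 20 tags in WT and 19 in mutant (log2 -0.09).

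Over all shared peaks the pattern was the same. The WT and mutant lists gave 111 pairs in which each peak was the tallest partner of the other. Their median log2 ratio was 0.04 (interquartile range -0.08 to 0.18), against 0.07 for all 65668 pairs in autosomal protein-coding genes, and 64 were higher in mutant (57.7%, against 57.8%). A difference of at least 1.5-fold in favour of mutant was found in 4 pairs (3.60%, against a background of 6.66%) and in favour of WT in 0 pairs (background 3.01%). At starts the median was 0.04 over 48 pairs and away from starts 0.04 over 63 pairs. The 3 pairs other than that of Kmt2d were intronic and low. An intronic Ezh1 peak (chr11:101212059-101212269) went from 8 to 15 tags, an intronic Kdm4c peak (chr4:74277460-74277885) from 14 to 25 and an intronic Kdm2b peak (chr5:122881309-122881544) from 14 to 22, which gave log2 ratios of 0.89, 0.82 and 0.63.

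**Figure D3:**
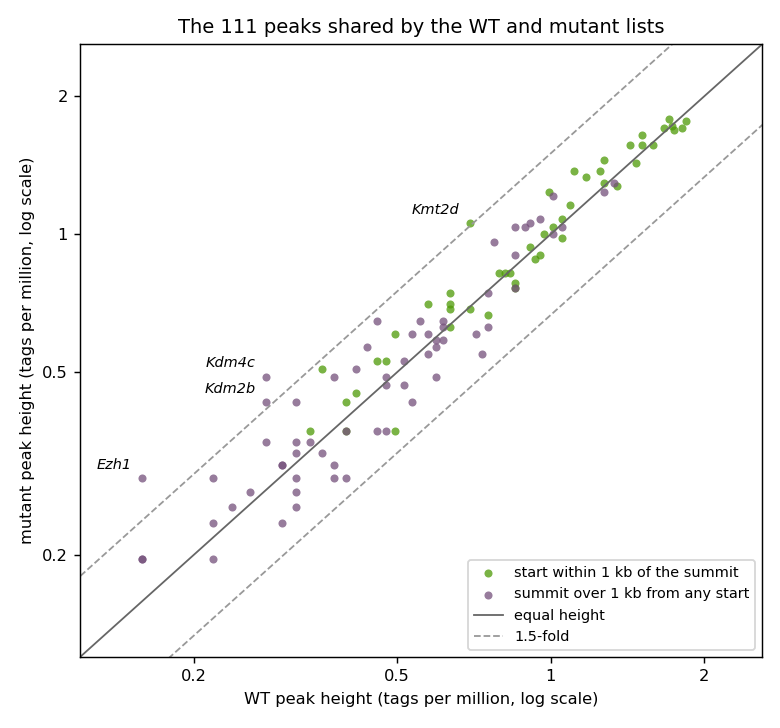
WT height (x axis) against mutant height (y axis) of the 111 shared peaks, both scaled to the tags of the list and on log scales, coloured by whether the summit is within 1 kb of a start. The points follow the line of equal height, and 4 named peaks lie above the upper 1.5-fold line with none below the lower one.

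Among the 83 pairs with a mean height of at least 0.4, the highest ratios after Kmt2d were small. A second peak near the start of Kdm3a (chr6:71632142-71632263) held 18 and 26 tags (log2 0.51), an intronic peak of the H3K4 methyltransferase Kmt2c (chr5:25472191-25472426) 23 and 33 tags (0.50), and intronic peaks of Kdm4b 22 and 29 tags (0.38) at chr17:56357692-56357800 and 19 and 25 tags (0.38) at chr17:56337244-56337517. The Poisson intervals of WT and mutant overlapped for each of these. In Kmt2c 4 of 5 pairs were higher in mutant by height as well as by fold enrichment, with a median log2 height ratio of 0.30.

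The lowest ratios were of a similar size. The intronic peak of Kdm4a (chr4:118147910-118148298), a demethylase of H3K9 and H3K36, held 37 tags in WT and 28 in mutant (log2 -0.42), and in fold enrichment over the local background the log2 ratio was -0.12. A peak in the body of Kdm6b (chr11:69401206-69401544), 49 bp from the start of the antisense gene Kdm6bos, held 25 and 19 tags (-0.41). Peaks upstream of Kdm2b (chr5:122994572-122994749, 24 and 19 tags) and in an intron of the H3K79 methyltransferase Dot1l (chr10:80757816-80757987, 27 and 22 tags) had ratios of -0.36 and -0.31. A second intronic Kdm4a peak (chr4:118156517-118156868) held 23 and 19 tags (-0.29), and its direction turned in fold enrichment (0.05). Here too the Poisson intervals overlapped in each pair. In Kdm4a 1 of 6 pairs was higher in mutant by height but 5 of 6 by fold enrichment, and in Setd1b, an H3K4 methyltransferase, 0 of 5 by height and 2 of 5 by fold enrichment.

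By enzyme class, the median log2 ratio was 0.04 over 25 pairs of the 7 H3K4 methyltransferase genes, 0.05 over 18 pairs of the 8 methyltransferases of H3K9, H3K36, H3K79 and H4K20, and 0.10 over 8 pairs of the 4 PRC2 genes. Among demethylases it was -0.16 over 3 pairs of Kdm1a and Kdm1b, 0.02 over 14 pairs of Kdm2a and Kdm2b, -0.02 over 26 pairs of the 6 Kdm3 and Kdm4 genes, 0.15 over 4 pairs of Kdm5a and Kdm5b and 0.03 over 13 pairs of Kdm6b, Kdm7a and Kdm8. The signs were not stable. After centring on the median of all shared pairs only the PRC2 and Kdm5 classes had a median above 0 (0.03 and 0.07), and by fold enrichment the Kdm3 and Kdm4 class turned to 0.06. Pairs past 1.5-fold were 1 each in the H3K4 methyltransferase, PRC2, Kdm2 and Kdm3 with Kdm4 classes and 0 in the others.

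Peaks found in only 1 of the WT and mutant lists were a minority. Of the 134 WT peaks, 17 had no overlapping mutant peak (12.7%, Wilson 95% interval 8.07 to 19.4%), against 18.7% of all WT peaks in autosomal protein-coding genes, a value inside the interval. In the mutant list 21 of 140 were without a WT peak (15.0%, 10.03 to 21.8%), against 26.9%, which lay above the interval. The share moved with position. At starts it was 1 of 54 WT peaks (1.85%, 0.33 to 9.77%, against 7.14%) and 3 of 57 mutant peaks (5.26%, 1.81 to 14.4%, against 10.7%). Away from starts it was 16 of 80 WT peaks (20%, 12.7 to 30.05%, against 21.97%) and 18 of 83 mutant peaks (21.7%, 14.2 to 31.7%, against 31.3%). The background values lay inside the intervals at starts as well as away from starts. The part of the larger share of start-site peaks in the overall difference was not tested. The unshared WT peaks had a median rank of 21.1, against 70.2 for those with a mutant peak, and the unshared mutant peaks a median rank of 25.4, against 69.6. Over all genes the same medians were 19.1 against 63.2 and 25.4 against 66.9, so low ranks of unshared peaks were common to all genes.

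**Figure D4:**
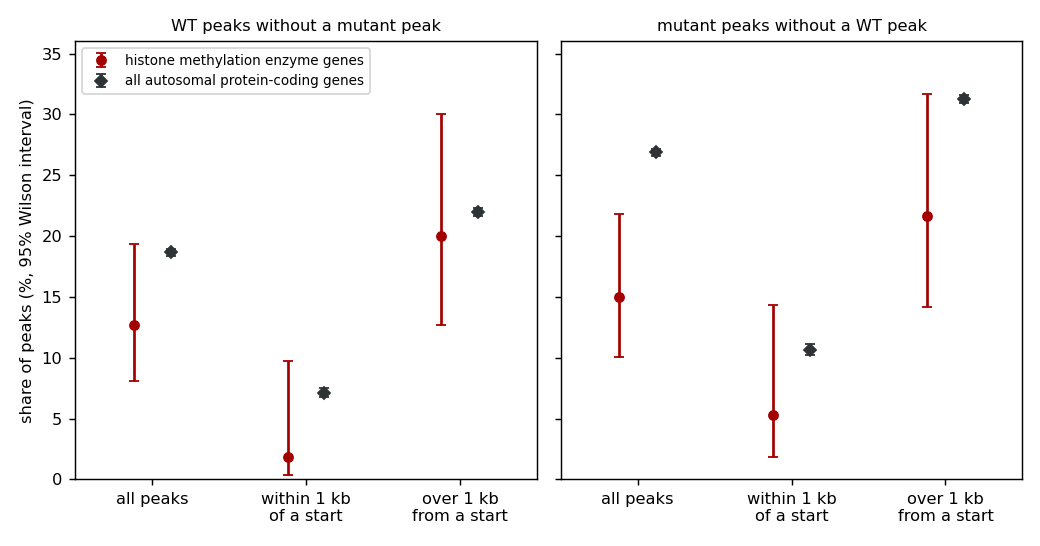
Share of peaks unshared between WT and mutant, for the WT list (left) and the mutant list (right), in percent with Wilson 95% intervals that cover counting error only, for the 34 genes (circles) and all autosomal protein-coding genes (diamonds). For mutant peaks the overall share is 15.0% against 26.9%, and away from starts the interval of the 34 genes, 14.2 to 31.7%, includes the 31.3% of all genes.

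The strongest WT peaks with no mutant peak within 300 bp were mostly intronic. The first was the Eed peak shown above (chr7:89983561-89983703), 2654 bp upstream of the Eed start in an intron of the long non-coding gene E230029C05Rik, with 36 tags, a -log10 q of 10.6 and rank 65.1. It was followed by peaks in an exon near the 3′ end of Kdm4b (chr17:56401243-56401385, 21 tags, rank 44.4) and in introns of the H3K4 demethylase Kdm1b (chr13:47081051-47081175, 12 tags), of Kdm4c (chr4:74402648-74402737, 12 tags) and of the H3K9 demethylase Kdm3b (11 tags). Of 14 such WT peaks, 0 had a het peak within 300 bp. Over all genes, with peaks within 300 bp joined into regions, WT alone made up 10.9% of regions and WT with het 1.48%. A lack of het partners was thus common to all genes.

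Among mutant peaks with no WT peak within 300 bp, the first was the intronic Kdm2b peak shown above (chr5:122972202-122972377) with 17 tags, a -log10 q of 10.1 and rank 64.2. A het peak with 11 tags was found there as well. Next came intronic peaks of Ehmt1, an H3K9 methyltransferase (chr2:24852535-24852653, 13 tags), of Kdm2a (chr19:4338349-4338442, 16 tags), of Ehmt2 (chr17:34911958-34912331, 15 tags) and of Kdm4c (chr4:74286041-74286128, 12 tags). Of 15 such mutant peaks, 3 had a het peak within 300 bp. Among the joined regions over all genes, mutant alone made up 17.9% and het with mutant 2.94%. Kdm4c was the gene with the most unshared WT peaks. Of its WT peaks 4 of 6 were unshared with mutant, as were 3 of 5 in the other direction, and those 7 peaks held 8 to 12 tags each while its promoter held 91 and 87.

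Most het peaks had a partner in the WT and mutant lists, whereas more WT and mutant peaks lacked a het partner. Of 97 het peaks, 7 had no WT peak (7.22%, 3.54 to 14.2%, against 10.9% of all) and 4 had no mutant peak (4.12%, 1.62 to 10.1%, against 8.4%). None of the 45 het peaks at starts lacked a WT or a mutant peak, which allows a share of up to 7.87% by the Wilson interval. Over all genes 3.41% of the het peaks at starts lacked a WT peak and 2.65% a mutant peak, values inside that interval. In the other direction 36 of 134 WT peaks had no het peak (26.9%, against 32.5%) and 36 of 140 mutant peaks (25.7%, against 37.3%). These had median ranks of 30.4 and 36.7. When peaks within 300 bp were joined over the lists, 131 regions resulted, of which 84 (64.1%, 55.6 to 71.8%) were in all 3 lists, against 51.3% over all genes. Regions of WT alone numbered 12 (9.16%, against 10.9% over all genes) and of mutant alone 12 (9.16%, against 17.9%). Regions of WT with mutant numbered 16 (12.2%, against 12.6%), of het alone 4 (3.05%, against 2.84%) and of het with mutant 3 (2.29%, against 2.94%). Regions of WT with het were not found (1.48% over all genes). Regions in all 3 lists were thus more frequent than over all genes and regions of mutant alone less frequent. The other shares were close to those over all genes. Regions were not split by position, and the part of the larger share of start-site peaks in these differences was not tested.

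The tallest WT peaks away from GENCODE starts were examined one by one, and each had a het and a mutant peak within 300 bp. The first was counted with Kdm6b (chr11:69418658-69419248, 67 tags in WT) and had its summit 5297 bp upstream of the GENCODE start. Only the edge of this peak overlapped the window of 5 kb upstream, and its summit lay outside. The second was in Kdm2a (chr19:4333804-4334340), a demethylase of H3K36, 64231 bp into the gene, with 64 tags in WT and 63 in mutant. Its summit lay 85 bp from the start of a RefSeq model transcript of Kdm2a at 4334139, upstream of which the sequence shown above was read. The third was an exonic Kdm6b peak (chr11:69408580-69409001, 53 tags), and the fourth the intronic Kdm4b peak (chr17:56360305-56360913) with 51 tags in both lists, 34511 bp from the start. The fifth, downstream of Ezh1 (chr11:101189391-101190300, 51 tags), lay in an exon of the neighbouring gene Cntnap1, and its assignment to Ezh1 rests on the window alone. The sixth lay 3149 bp upstream of Kdm5b (chr1:134556348-134557231) and held 48 tags, so that it was taller, at a height of 0.952, than the Kdm5b promoter peak at 0.456.

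Kdm6b, which removes H3K27 methylation and so opposes PRC2, was the gene without a promoter peak. Its GENCODE start (chromosome 11, 69413675, minus strand) lay in a gap of the peaks of every list. The WT list held peaks on both sides, from 69409242 to 69411405 on the gene side and from 69415334 to 69418188 upstream, with 21 to 31 tags each, between the 2 tall peaks of 67 and 53 tags. RefSeq gives 10 starts for this gene, and with RefSeq starts in place of GENCODE starts, a choice made after the data were seen, all 34 genes had a promoter peak in all 3 lists. The local background that MACS2 set against these peaks, as implied by pileup and fold enrichment, had a median of 8.15 tags at the 9 Kdm6b peaks in WT, against 4.58 over the 134 peaks of the 34 genes and 2.64 over all autosomal protein-coding genes. In mutant the values were 8.44, 4.79 and 2.57. The part of this background in the missing promoter peak was not tested. Of the 8 Kdm6b pairs, 3 were higher in mutant, with a median of -0.03.

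**Figure D5:**
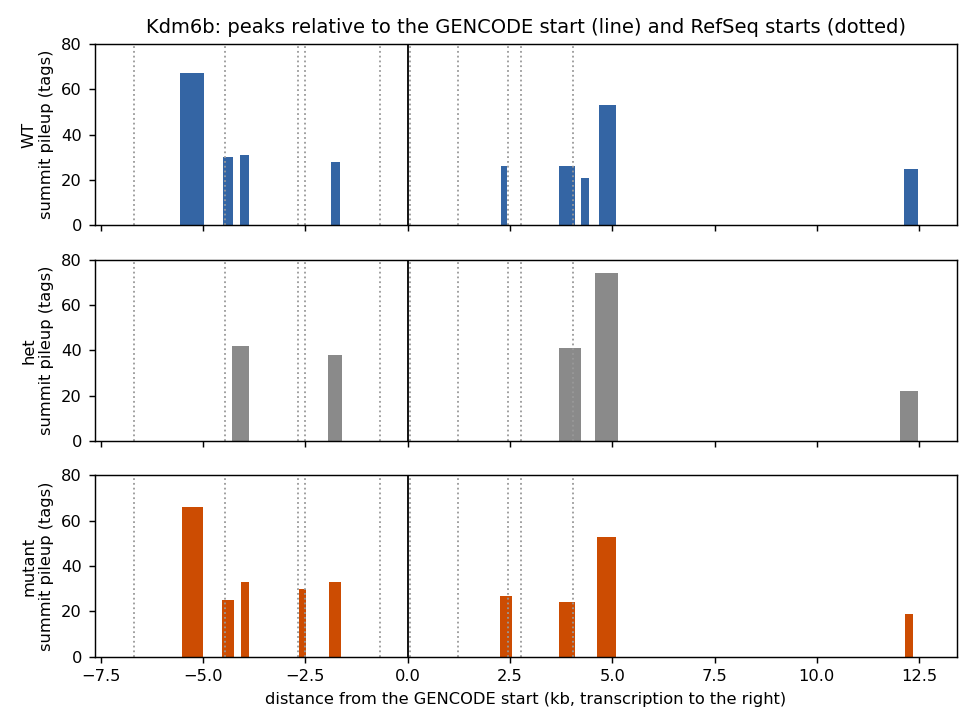
Peaks in the Kdm6b window in the WT, het and mutant lists, drawn at their distance in kb from the GENCODE start (solid line) with pileup in tags as bar height, and RefSeq starts as dotted lines. Peaks flank the GENCODE start on both sides in every list without reaching it, and the 67-tag WT peak at the upstream edge has a het partner within 300 bp that lies outside the window.

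Other genes of the pathway, 24 subunits and methyltransferases outside the rule, were read in the same way. They held 137 WT, 99 het and 154 mutant peaks, of which Smyd3 alone had 48, 34 and 60. In the WT list 26 of these were unshared with mutant (19.0%), and in the mutant list 38 were unshared with WT (24.7%), 22 of them in Smyd3. Over 106 pairs the median log2 ratio was 0.10, against 0.07 for all pairs. At least 1.5-fold higher in mutant were 7 (6.60%, against 6.66% of all pairs) and lower were 0 (against 3.01%). Jarid2, an accessory subunit of PRC2, had 17, 12 and 17 peaks and a median ratio of 0.28 over 14 pairs, 2 of them past 1.5-fold. Among subunits of H3K4 methyltransferase complexes, Wdr5, Ash2l, Dpy30 and Men1 had median ratios of -0.22, -0.06, -0.04 and -0.13 over 1, 1, 3 and 2 pairs. Rbbp5, Ncoa6 and Paxip1 had 0.15, 0.40 and 0.03 over 1, 2 and 4 pairs, so the direction was mixed.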

How the data were processed

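ATAC-seq of GNPs from mice at postnatal day 7 was analysed from 3 peak lists, called on 3 WT, 2 het and 3 mutant libraries pooled by genotype. The labels name Trim Galore 0.4.1, Picard 1.139 and MACS2 2.1.0.20150731 for all samples, STAR 2.5.0b for WT and mutant and Bowtie 1.0.0 for het. For het the file header gives a fragment length of 200 bp, for WT and mutant 90 and 88 bp. Pileup is the signal deposited by the authors at each summit, in unscaled tags. Fold enrichment is the ratio deposited by the authors over local background, and -log10 q values were deposited by the authors too.

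Heights were computed as pileup per 1000000 tags kept by MACS2 (50394313 WT, 30923002 het, 51030229 mutant). Het heights were not compared with the others. Peaks were assigned to a gene when they overlapped its body, 5 kb upstream or 1 kb downstream (GENCODE M21), and counted as shared when overlapping by at least 1 bp. Mutual tallest partners formed WT and mutant pairs. Shares carry Wilson 95% intervals, which cover counting error alone. With pooled lists no test across samples could be made. All autosomal protein-coding genes served as background. The overlap and pairing steps were tested on simulated peaks. 0 columns were left without a group. Members, gene lists and thresholds were chosen with earlier results of these data known.

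Named peaks were the 6 tallest WT peaks over 1 kb from any start, the 5 strongest WT and the 5 strongest mutant peaks without a partner within 300 bp, and the 5 highest and 5 lowest ratios among pairs of mean height of at least 0.4. Other peaks named for a single gene were picked after their values were seen. Promoter sequences and alternative starts came from RefSeq (GRCm38.p6). Calculations used numpy 2.4.6, pandas 2.3.3, scipy 1.17.1 and pysam 0.24.0. Alternatives covered overlap, thresholds, windows and height measures.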

Additional observations from a re-analysis of the deposited data

How the results depend on the processing

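Of 37 recomputed values, 27 stayed within the counting interval of the reported value, or within 1.5 times for a count. With 50% reciprocal overlap the share without a partner was 23.9% for WT peaks against mutant, 27.1% for mutant against WT, 19.6% for het against WT and 18.6% for het against mutant. Limiting the query peaks to -log10 q values from 5 upwards, the same shares were 3.96%, 5.45%, 2.35% and 0%, by construction over fewer and stronger peaks, and with both lists limited the WT share was 6.93%. The median log2 ratio of the shared peaks turned to -0.030 when centred on the median of all shared pairs, and lay between 0.04 and 0.06 under the other alternatives. The promoter count was 32 with a 250 bp limit around starts as well as with that q limit on all lists. The remaining choices were made after seeing the data, RefSeq starts and leaving out Kdm4b, Kdm2b and Kdm6b. Without those 3 genes the shares were 12.4% for WT and 15.5% for mutant. Shares over all genes were not computed under any of these alternatives, so the contrast with the background was not examined there. No paired analysis was possible because each list pools the libraries of its genotype, and for the same reason no replicate could be left out. A single tag is a height of 0.0198 in WT and 0.0196 in mutant, so ratios of peaks with 8 to 15 tags rest on few tags.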

Other observations

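Sex-linked relatives of the histone methylation enzyme genes were left out of the comparisons. On the X chromosome the H3K27 demethylase Kdm6a had 3 WT, 3 het and 4 mutant peaks, and the H3K4 demethylase Kdm5c had 3, 1 and 2. On the Y chromosome Kdm5d and Uty each had 1 WT peak and 0 het and 0 mutant peaks. The sex of the pooled animals is not given in the labels, so sex and genotype cannot be told apart at these genes.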
